A study of Mus musculus with 13 samples.

Results

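Tbx21, which codes for T-bet, and Eomes, which codes for eomesodermin, were followed across 13 oligonucleotide arrays of P14 CD8+ T cells. All probe sets that the platform annotation assigns to either gene were taken, which gave 3 of the 45101 probe sets of the table: 1449361_at for Tbx21, and 1426001_at and 1435172_at for Eomes. All 13 arrays hold cells of the C57Bl/6 background that carry the transgenic P14 T cell receptor, so their CD8+ T cells largely share a specificity, and had been enriched by magnetic negative selection. The groups were BATF-/- effector cells at day 3 (4 arrays), wild-type effector cells at day 3 (4 arrays), BATF-/- naive cells at day 0 (3 arrays) and wild-type naive cells at day 0 (2 arrays). Day 3 cells are effector cells made in culture: for 3 days they met antibodies to CD3 and CD28 bound to the plate, in medium with recombinant human IL-2 at 100 U/ml. BATF-/- cells came from mice that lack Batf, an AP-1 family transcription factor induced in activated lymphocytes, so the gene was missing before stimulation as well.

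T-bet and eomesodermin bind DNA through a related T-box domain, and both drive genes of cytotoxic function and the production of interferon gamma in CD8+ T cells and natural killer (NK) cells. T-bet is raised by signals from the T cell receptor, interferon gamma and interleukin 12, and high T-bet marks short-lived effector cells. Eomes is favoured by interleukin 2, whose receptor beta chain is a target of both factors, and is linked to memory CD8+ T cells.

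Tbx21 lies on chromosome 11 (97098007 to 97115331, minus strand) and Eomes on chromosome 9 (118478186 to 118486132, plus strand), both in RefSeq on GRCm38.p6. The bases just upstream of their annotated starts are shown because these are the promoters of the only members, whose differences between the genotypes at day 3 had opposite signs. The RefSeq windows are chr11:97115332-97115581 for Tbx21 and chr9:118477939-118478185 for Eomes, both 5′ to 3′ on the strand of the gene, and capitals mark a match to a searched motif.
Tbx21: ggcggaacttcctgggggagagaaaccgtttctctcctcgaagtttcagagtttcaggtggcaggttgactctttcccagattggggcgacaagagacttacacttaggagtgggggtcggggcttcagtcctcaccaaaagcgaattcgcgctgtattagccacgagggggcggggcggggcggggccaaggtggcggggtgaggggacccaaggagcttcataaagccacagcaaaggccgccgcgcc
Eomes: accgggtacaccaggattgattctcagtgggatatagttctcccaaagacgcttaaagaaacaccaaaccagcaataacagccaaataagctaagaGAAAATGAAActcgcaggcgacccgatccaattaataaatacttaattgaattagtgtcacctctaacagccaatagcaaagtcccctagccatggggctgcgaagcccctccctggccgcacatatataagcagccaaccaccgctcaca
Both strands were searched for an AP-1 motif (TGANTCA), an IRF motif (GAAA, any 2 bases and GAAA), a T-box motif (AGGTGTNA) and an NFAT motif (GGAAANT). The only match was the IRF motif in the Eomes window, which starts 151 bases upstream of the gene. Of 32851 RefSeq windows of 250 bases, 2.98% hold the IRF motif, 6.75% the AP-1 motif, 2.68% the T-box motif and 15.25% the NFAT motif. A match describes these letters only, and binding was not measured. The base composition of the windows differed, with 60.8% G and C for Tbx21 and 46.6% for Eomes, against a median of 52.4% over the windows.

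Values are log2 intensities from RMA, a method that subtracts background, puts all arrays on 1 scale and summarises each probe set. Median linear intensities lay between 31.5 and 32.5, and precision is limited by how many arrays there were. Batf, the deleted gene, was at 5.56 to 6.77 in BATF-/- day 3 arrays, against 8.63 to 9.19 in wild-type day 3 arrays. It was at 5.60 to 6.06 in BATF-/- naive arrays, against 9.19 and 9.36 in wild-type naive arrays. Batf was thus not higher at day 3 than in naive wild-type cells (-0.41 ± 0.28, SE, adjusted p = 0.251). The 6 CD8+ T cell markers (Cd8a, Cd8b1, Cd3e, Cd3d, Cd3g and Cd2) were bright in every array, with list means between 11.67 and 12.23. BATF-/- naive replicate 1 stood apart: its neutrophil marker mean was 9.41 (7 genes), while the other naive arrays lay between 5.22 and 6.42, and its CD8+ T cell mean was the lowest of the 13.

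In every array both genes lay above the log2 intensity of 4.35 that bounds the dimmest 40% of probe sets. The deleted Batf lay above it in BATF-/- arrays too (from 5.56), so this bound by itself does not show expression. For Tbx21 the order of group means was wild type at day 3 (8.15 ± 0.09, SD, n = 4), BATF-/- naive (7.97 ± 0.40, n = 3), wild-type naive (7.82 ± 0.22, n = 2) and BATF-/- at day 3 (7.26 ± 0.11, n = 4). The lowest position of stimulated BATF-/- cells was the only gap in that order between neighbours whose arrays did not overlap. For Eomes (1426001_at) the order was BATF-/- at day 3 (10.70 ± 0.07), wild type at day 3 (9.88 ± 0.09), BATF-/- naive (9.75 ± 0.89) and wild-type naive (9.71 ± 0.16). Here stimulated BATF-/- cells were at the top, and the arrays of the other groups overlapped. The cells are bulk preparations, in which fewer cells with a transcript and less of it per cell cannot be told apart.

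**Figure D1:**
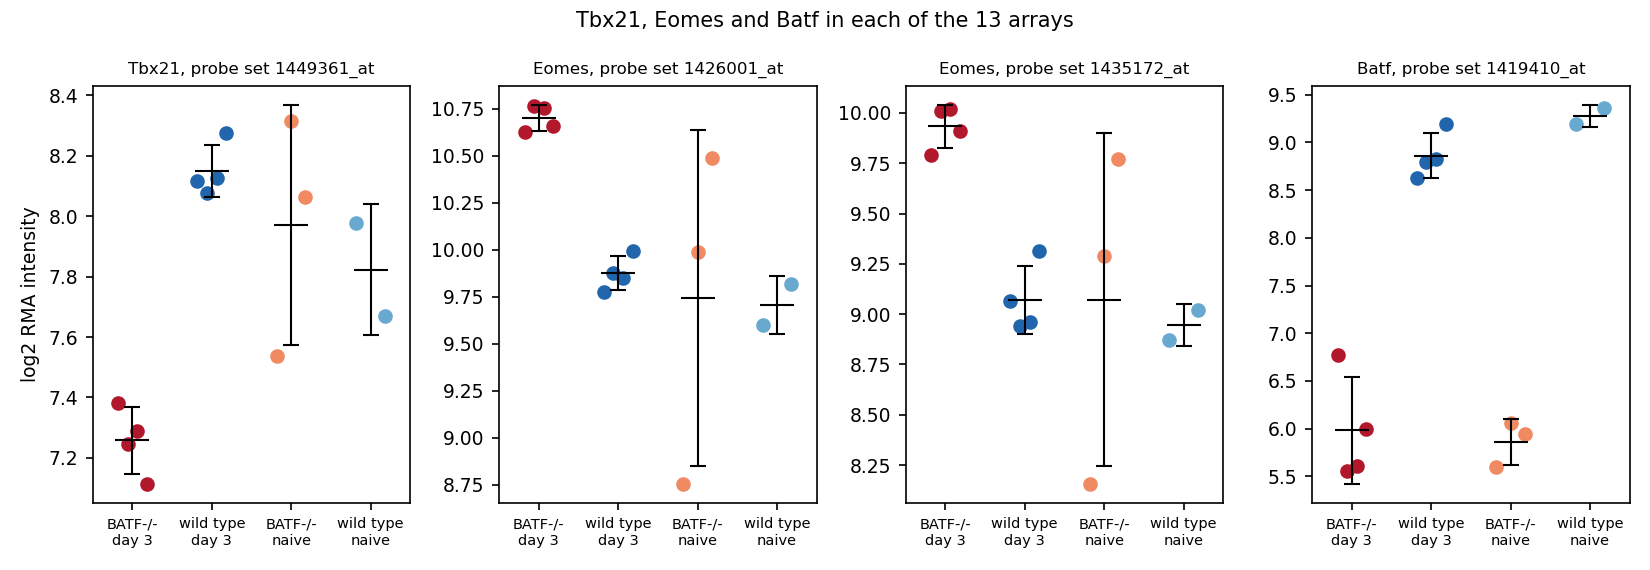
Log2 RMA intensity (vertical axes, each with its own range) of Tbx21, both Eomes probe sets and Batf in each array, as points by group, with the group mean and SD as black bars. In day 3 arrays Tbx21 lies between 7.11 and 7.38 in BATF-/- and between 8.08 and 8.28 in wild type. Eomes is higher in BATF-/- day 3 arrays in both probe sets. The BATF-/- naive arrays are the most spread for Tbx21 and Eomes, and the BATF-/- day 3 arrays for Batf.

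Comparing BATF-/- with wild type after stimulation asks how stimulated cells without Batf differ in T-box factors. Tbx21 RNA was lower in BATF-/- cells. Its log2 intensity was 7.38, 7.25, 7.29 and 7.11 in BATF-/- day 3 arrays, against 8.12, 8.08, 8.13 and 8.28 in wild-type day 3 arrays. Every BATF-/- array lay below every wild-type array. It differed by -0.89 ± 0.14 (SE, 4 arrays each, adjusted p = 0.00552), or 1.86-fold, with a 95% interval from -1.19 to -0.60. By p-value it was the gene at position 66 of 18193.

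Eomes stood at higher values in the same BATF-/- arrays, although the call depended on which arrays informed the spread. Probe set 1426001_at was at 10.63, 10.77, 10.76 and 10.66 in BATF-/- day 3 arrays, against 9.77, 9.88, 9.85 and 9.99 in wild-type day 3 arrays. Probe set 1435172_at was at 9.79, 10.01, 10.02 and 9.91 in BATF-/- arrays, against 9.07, 8.94, 8.96 and 9.31 in wild-type arrays. In both probe sets the lowest BATF-/- array was above the highest wild-type array. The differences were 0.83 ± 0.26 (1.77-fold, 95% interval 0.27 to 1.39, adjusted p = 0.169) and 0.86 ± 0.24 (1.82-fold, adjusted p = 0.15), so neither passed in the fit over all 13 arrays. That fit pools the spread of all groups, and the SD of Eomes was 0.07 in BATF-/- and 0.09 in wild-type day 3 arrays, but 0.89 in BATF-/- naive arrays. With the 8 day 3 arrays alone the same difference had adjusted p = 0.00012, and without BATF-/- naive replicate 1 adjusted p = 0.000708.

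As a background, 1.37% of 18193 genes passed at day 3 (0.665% higher and 0.709% lower in BATF-/- cells), and 12.8% had groups that did not overlap. When each of 45037 probe sets was tested by itself, 0.773% passed, among them Tbx21 (adjusted p = 0.00698). BATF-/- day 3 replicate 1 had the highest Batf intensity of its group (6.77), the highest Tbx21 and the lowest Eomes. Without it the differences were -0.93 for Tbx21 (adjusted p = 0.0116) and 0.85 for Eomes (adjusted p = 0.229). Markers of NK cells, which express both factors, were compared at day 3 as well (5 genes). Their list means were 4.57 to 4.77 in BATF-/- and 4.48 to 4.69 in wild-type arrays. Of the 5 genes, 3 were above the bound of 4.35 in every day 3 array. The NK receptor gene Ncr1 was below it, at 3.43 to 3.87 in BATF-/- and 3.41 to 3.88 in wild-type arrays. The part of NK cells in the day 3 values was not tested.

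The balance between the genes can be read per array as Eomes minus Tbx21, a number whose level depends on the probes and of which only a change between groups has a meaning. It was 3.25, 3.52, 3.47 and 3.55 in BATF-/- day 3 arrays, against 1.66, 1.80, 1.73 and 1.72 in wild-type day 3 arrays. The means differed by 1.72 on the log2 scale, since a lower Tbx21 and a higher Eomes add up. In naive cells it was 1.22, 1.68 and 2.43 in BATF-/- arrays, against 1.62 and 2.15 in wild-type arrays, and these ranges overlapped.

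In naive cells neither gene differed by more than the spread between arrays. Tbx21 was at 7.54, 8.32 and 8.06 in BATF-/- arrays, against 7.98 and 7.67 in wild-type arrays. Eomes (1426001_at) was at 8.76, 9.99 and 10.49 in BATF-/- arrays, against 9.60 and 9.82 in wild-type arrays. Probe set 1435172_at was at 8.16, 9.29 and 9.77 in BATF-/- arrays, against 8.87 and 9.02 in wild-type arrays. Both genes were lowest in BATF-/- naive replicate 1, the array with the high neutrophil markers, and the ranges overlapped for all 3 probe sets. The differences were 0.15 ± 0.17 for Tbx21 (adjusted p = 0.763, 95% interval -0.23 to 0.53) and 0.04 ± 0.33 for Eomes (adjusted p = 0.975, 95% interval -0.69 to 0.76). Probe set 1435172_at differed by 0.13 ± 0.31 (adjusted p = 0.909).

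Without BATF-/- naive replicate 1, Eomes was 0.53 ± 0.14 (adjusted p = 0.0821) and Tbx21 0.37 ± 0.12 (adjusted p = 0.174) higher, and neither passed. NK cell markers, with means of 7.36 to 8.22 in BATF-/- and 6.51 and 6.71 in wild-type naive arrays, and B cell markers, with means of 6.81 to 7.25 and 6.09 and 6.56, were higher in each BATF-/- array. Of the 5 NK markers Klre1 and Klra8 passed, as did 3 of 9 B cell and none of 7 neutrophil markers. The part of these cells in the naive values was not tested. As a background, 1.08% of genes passed in naive cells (0.813% higher and 0.264% lower in BATF-/-), 0.739% of probe sets did, and 24.5% of genes had groups that did not overlap.

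**Figure D2:**
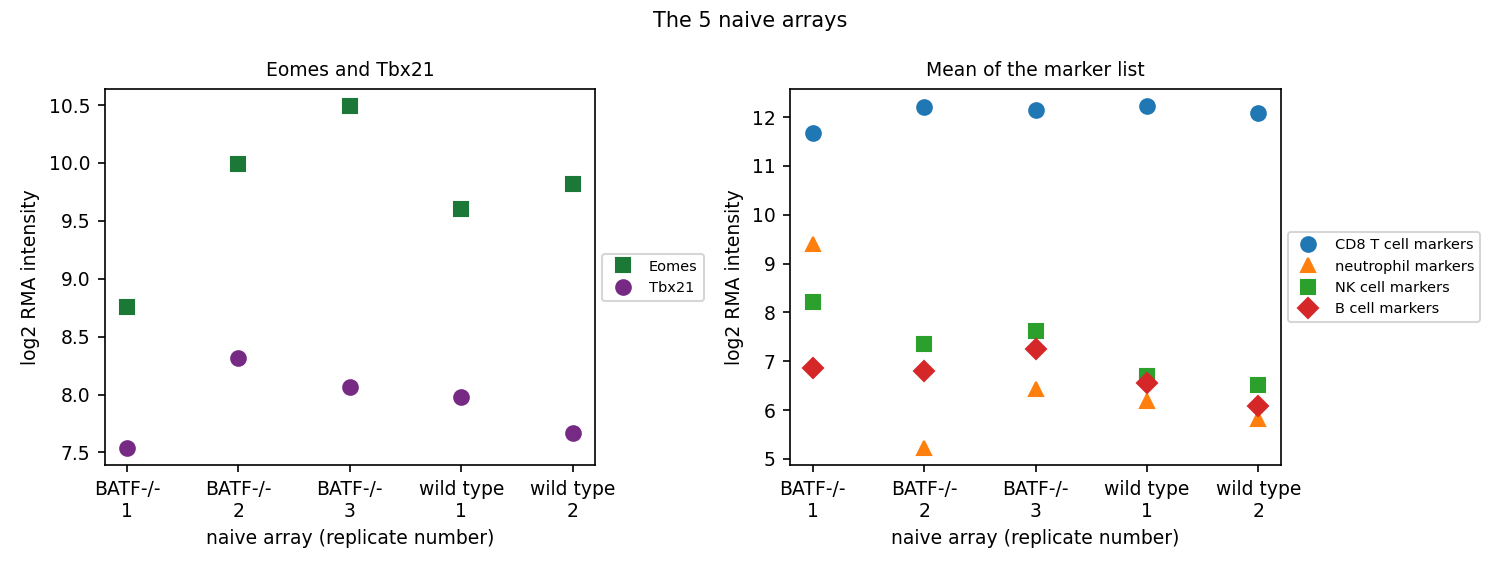
Log2 RMA intensity in the 5 naive arrays (horizontal axis, genotype and replicate number): Eomes (1426001_at) and Tbx21 on the left, and the means of the marker lists of 4 cell types on the right. BATF-/- replicate 1 has the lowest Eomes (8.76) and Tbx21 (7.54) and the highest neutrophil mean (9.41).

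Between naive and day 3 BATF-/- arrays the genes moved apart. Tbx21 fell at day 3 relative to naive BATF-/- cells (-0.71 ± 0.15, 1.64-fold, n = 4 and 3, adjusted p = 0.00116). Eomes rose (0.96 ± 0.28, 1.94-fold, adjusted p = 0.0124), and its other probe set rose too (0.86 ± 0.26, adjusted p = 0.0175). For both genes the day 3 arrays did not overlap with the naive arrays. NK markers had list means of 7.36 to 8.22 in naive and 4.57 to 4.77 in day 3 BATF-/- arrays. Their part in these changes of Tbx21 and Eomes was not tested. The size for Eomes depended on BATF-/- naive replicate 1, without which it was 0.46 (adjusted p = 0.0062). With arrays weighted by their fit it was 0.41 (adjusted p = 0.0461), and with these groups alone adjusted p = 0.0514. Among BATF-/- arrays 47% of genes passed between the states (23.8% higher and 23.2% lower at day 3), 38.3% of probe sets did, and 48.2% of genes had groups that did not overlap, so a change at day 3 was common.

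In wild-type cells neither gene passed. Tbx21 was 0.33 ± 0.17 higher at day 3 (n = 4 and 2, adjusted p = 0.132, 95% interval -0.03 to 0.69), and its 4 day 3 arrays lay above both naive arrays. It passed with these groups alone (adjusted p = 0.0293) and without BATF-/- naive replicate 1 (adjusted p = 0.0214). Without wild-type naive replicate 2 the value was 0.17 (adjusted p = 0.595). Eomes was 0.17 ± 0.32 higher (adjusted p = 0.711, 95% interval -0.52 to 0.85), with overlapping arrays, and 1435172_at was at 0.12 ± 0.30 (adjusted p = 0.785). Of all genes 45.4% passed (22.4% higher and 23% lower at day 3), 38.6% of probe sets did, and 58.3% of genes did not overlap.

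The test of the difference between these changes asks whether the change from naive to day 3 differs between the genotypes. A difference in either state can give it. For Tbx21 the change in BATF-/- cells minus that in wild-type cells was -1.04 ± 0.22 (95% interval -1.52 to -0.56, unadjusted p = 0.000448, adjusted p = 0.0637), which did not pass. It passed without BATF-/- naive replicate 1 (-1.26, adjusted p = 0.00231) and without BATF-/- naive replicate 2 (-0.87, adjusted p = 0.0478), and it was at -0.89 (adjusted p = 0.222) without wild-type naive replicate 2. For Eomes it was 0.79 ± 0.42 (95% interval -0.13 to 1.71, adjusted p = 0.497), and 0.30 (adjusted p = 0.451) without BATF-/- naive replicate 1. Of all genes 0.649% passed this test (0.165% with a positive and 0.484% with a negative difference), as did 0.306% of probe sets. NK marker means also fell in wild-type arrays (6.51 and 6.71 in naive, 4.48 to 4.69 at day 3). The part of NK cells in the changes of Tbx21 and Eomes, and in their genotype difference, was not tested.

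**Figure D3:**
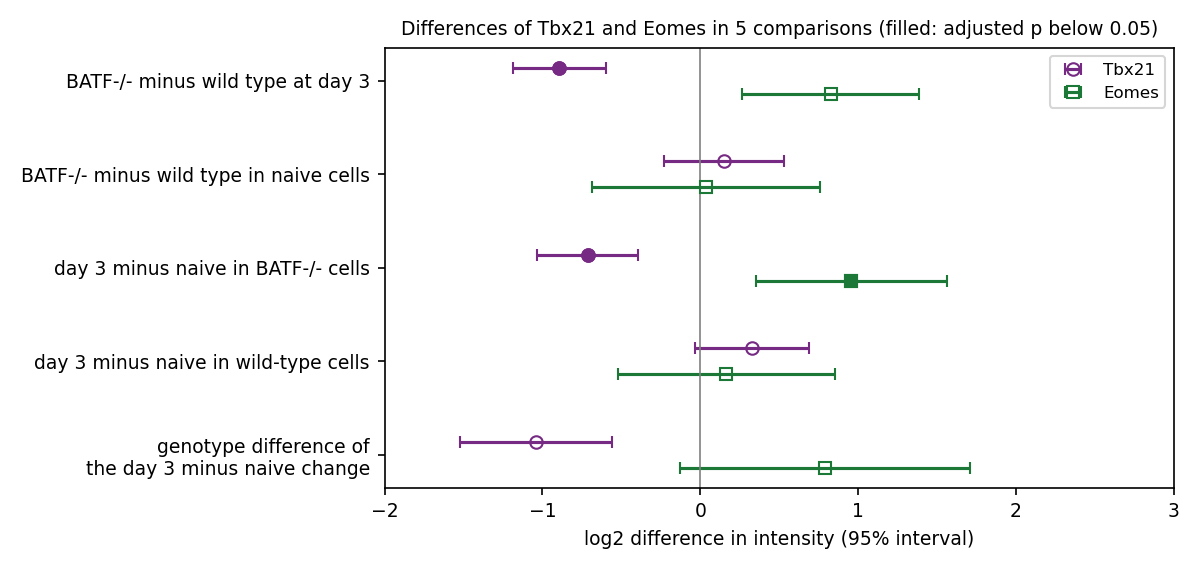
Log2 differences (horizontal axis) of Tbx21 (circles) and Eomes (squares, 1426001_at) in the 5 comparisons, with 95% intervals from the fit over 13 arrays, filled where the adjusted p was below 0.05. Tbx21 and Eomes lie on opposite sides of 0 at day 3 between the genotypes (-0.89 and 0.83) and between day 3 and naive BATF-/- cells (-0.71 and 0.96).

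Other genes of the T-box family were compared as well. Of 13 measured members, 7 were among the dimmest 40% of probe sets, and none passed between the genotypes at day 3 or in naive cells. Of all genes 1.37% passed at day 3 and 1.08% in naive cells, so a list of 13 may hold none. The medians of the 13 were 0.06 at day 3 and -0.03 in naive cells, against 0.01 and 0.00 over all genes. Mga, which codes for a T-box protein that also binds Max, fell with stimulation in BATF-/- cells (-0.55 ± 0.11, adjusted p = 0.000901) and in wild-type cells (-0.96 ± 0.12, adjusted p = 2.48e-05). Tbx4, a limb and lung factor, rose by 0.26 in BATF-/- cells (adjusted p = 0.0158), with group means of 4.30 to 4.56 around the bound of 4.35.

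Receptors and signal proteins upstream of T-bet and Eomes were compared between the genotypes as well. Of all genes 1.37% passed at day 3 and 1.08% in naive cells, so a list of 17 may hold none. None of 17 measured genes passed at day 3 (median -0.07) or in naive cells (median -0.06), although Il2ra was higher in naive BATF-/- cells without BATF-/- naive replicate 1 (0.51, adjusted p = 0.00771). The largest difference at day 3 was in Il12rb2, the signalling chain of the interleukin 12 receptor, at -0.34 (adjusted p = 0.444), where BATF-/- arrays had 6.18 to 6.87 and wild-type arrays 6.68 to 7.10. Il2rb, the interleukin 2 receptor beta chain, differed by 0.05, with 10.74 to 10.81 in BATF-/- and 10.68 to 10.75 in wild-type day 3 arrays. With stimulation 9 of the 17 rose and 4 fell in BATF-/- cells, with the same counts in wild type. Over all genes 23.8% rose and 23.2% fell in BATF-/- cells, and 22.4% rose and 23% fell in wild-type cells. Il2ra, the alpha chain, rose by 5.18 in BATF-/- and 5.36 in wild-type cells, Il2rb by 2.37 and 2.29, and Il12rb1 by 1.11 and 1.30. Il12rb2 rose by 2.04 in BATF-/- and 2.61 in wild-type cells. The wild-type naive means of Il2ra (4.04) and Il12rb2 (4.26) were below the bound of 4.35, so those rises may be lower bounds. That bound is a percentile and not a limit of detection. The interferon gamma receptor chain Ifngr2 fell (-0.91 in BATF-/- and -0.77 in wild-type cells), as did the kinases Jak2 (-0.67 and -0.76) and Jak1 (-0.50 and -0.70) and the signal transducer Stat5a (-0.26 and -0.39).

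Among 20 measured transcription factors known to act on or beside T-bet and Eomes, 1 was higher and 2 were lower in BATF-/- cells at day 3 (median -0.03). Besides the deleted Batf, its relative Batf3 was lower (-1.12 ± 0.09, adjusted p = 7.2e-05). Runx1, a Runt factor that acts from early T cell development on, was higher (0.33 ± 0.06, adjusted p = 0.0117), with 7.43 to 7.62 in BATF-/- and 7.16 to 7.25 in wild-type arrays. Runx3, which induces Eomes in CD8+ T cells, was at -0.19 without passing. Without BATF-/- naive replicate 1 the list had 2 higher and 5 lower members at day 3, with Jun added above and Id3, Bcl6 and Gata3 added below. Over all genes 250 passed at day 3, and 122 to 563 without 1 array, so list counts can move with these totals.

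In naive cells 2 of the 20 were higher and 1, Batf, was lower in BATF-/-. The higher ones were Bhlhe40, a factor needed for interferon gamma production (1.08 ± 0.13, adjusted p = 0.00175), and Irf4, the partner of Batf at composite DNA elements (0.76 ± 0.16, adjusted p = 0.0384). Irf4 did not pass without BATF-/- naive replicate 1 (0.67, adjusted p = 0.0685), while Prdm1 then did (0.66, adjusted p = 0.0468). The naive calls also draw on the spread of the day 3 arrays, and with the naive groups alone 1 of 18193 genes passed. NK cell and B cell markers were higher in BATF-/- naive arrays as well, and the part of those cells was not tested. With stimulation 4 of the 20 rose and 10 fell in BATF-/- cells, against 6 and 9 in wild-type cells (of all genes 47% and 45.4% passed). Bhlhe40 rose by 4.04 in BATF-/- and 5.13 in wild-type cells, Irf4 by 2.66 and 3.13, and Prdm1, the factor Blimp-1 of terminal effector cells, by 2.01 and 2.76. Runx3 rose by 0.51 in BATF-/- and 0.66 in wild-type cells. Id3, an inhibitor of E proteins linked to memory cells, fell (-1.86 in BATF-/- and -1.80 in wild-type cells). The AP-1 genes Jun (-1.61 and -1.55) and Junb (-1.15 and -1.19), the naive-cell factor Lef1 (-1.12 and -1.31) and Runx1 (-0.997 and -1.22) fell as well. Batf3 rose by 1.26 in wild-type cells and was at 0.15 in BATF-/- cells, which did not pass. The changes of Batf3 (-1.11 ± 0.15, adjusted p = 0.00692) and Bhlhe40 (-1.09 ± 0.17, adjusted p = 0.0118) differed between the genotypes by the test of the difference. Batf3 was at 6.53 in BATF-/- and 7.65 in wild type at day 3, and at 6.38 and 6.39 in naive cells. Bhlhe40 was alike at day 3, at 11.31 in BATF-/- and 11.32 in wild type (adjusted p = 0.992). Its genotypes differed in naive cells, at 7.27 in BATF-/- and 6.19 in wild type. The change of Prdm1 differed too without BATF-/- naive replicate 1 (-0.91, adjusted p = 0.0332).

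Of 21 measured genes described as targets of T-bet or Eomes, 3 were higher and none was lower in BATF-/- cells at day 3, and 18 did not pass (median 0.08). Fasl, the death ligand, was at 8.67, 8.93, 8.92 and 8.82 in BATF-/- arrays, against 8.03, 7.96, 8.14 and 8.16 in wild-type arrays (0.76 ± 0.13, adjusted p = 0.0112). Perforin, Prf1, was at 8.46, 8.33, 8.41 and 8.36 in BATF-/- arrays, against 7.74, 7.87, 7.86 and 7.68 in wild-type arrays (0.61 ± 0.09, adjusted p = 0.00614). In both genes every BATF-/- array lay above every wild-type array, as for Eomes and unlike Tbx21. A part of either factor in these values was not tested. Ifng, interferon gamma, was at 7.18, 7.35, 7.32 and 7.14 in BATF-/- arrays, against 6.92, 6.99, 6.93 and 6.84 in wild-type arrays (0.33 ± 0.07, adjusted p = 0.0498), just past the threshold. Without BATF-/- naive replicate 1 there were 4 higher members, with the granule gene Nkg7 added (0.22, adjusted p = 0.0369). The count over all genes at day 3 shifted as well when 1 array was left out (122 to 563, against 250).

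The chemokine receptor Cxcr3, a gene induced by T-bet, was at -0.39 without passing, with 8.26 to 9.10 in BATF-/- and 8.65 to 9.56 in wild-type arrays. Gzmb, the granzyme of the cytotoxic granule, was among the brightest probe sets in all day 3 arrays (13.94 to 14.03 in BATF-/- and 13.90 to 13.95 in wild type). Among the wild-type arrays 3 of 4 had the same value, and the values used here do not show whether the probes were saturated.

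In naive cells 3 of the 21 were higher and none lower in BATF-/- (median 0.37, against 0.00 over all genes). These were Ifng (0.75 ± 0.10, adjusted p = 0.00199), the chemokine gene Xcl1 (0.74 ± 0.15, adjusted p = 0.0401) and Il18r1, a receptor chain for interleukin 18 (0.68 ± 0.09, adjusted p = 0.00357). Without BATF-/- naive replicate 1 there were 6 higher members (Ifng, Gzmb, Gzma, Fasl, Ccl3 and Il18r1), and Xcl1 did not pass (adjusted p = 0.0685). The count over all genes in naive cells shifted as well when 1 array was left out (97 to 627, against 196). With the naive groups alone it was 1. NK cells express several of these genes, and the higher NK markers of the BATF-/- naive arrays stand above; their part was not tested. Of 6 measured genes of memory-phenotype CD8+ T cells, Cd44 (0.64 ± 0.10, adjusted p = 0.00836) and the integrin chain gene Itgb1 (0.49 ± 0.09, adjusted p = 0.0202) were higher in BATF-/- naive arrays (median -0.04), while none of the 6 passed at day 3 (median -0.01). The same 2 genes passed in naive cells without BATF-/- naive replicate 1, with a list median of 0.39. Of all genes 1.37% passed at day 3 and 1.08% in naive cells.

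With stimulation 7 of the 21 target genes rose and 10 fell in BATF-/- cells, against 7 and 9 in wild-type cells. Of all genes 47% passed in BATF-/- and 45.4% in wild-type cells. Gzmb rose by 5.67 in BATF-/- and 6.14 in wild-type cells, which would be lower bounds if its bright day 3 probes were saturated, and these changes did not pass the test of the difference (adjusted p = 0.381). Fasl rose by 2.60 and 2.39, and Il2rb and Il12rb2 as above. Gzma, another granzyme, fell (-4.60 in BATF-/- and -3.40 in wild-type cells), as did the chemokine gene Ccl5 (-2.06 and -2.05) and the inhibitory receptor gene Klrg1 (-2.02 and -1.55). The sphingosine phosphate receptor gene S1pr5 fell too (-2.39 and -2.07). These may be lower bounds because its day 3 means were dim (3.20 in BATF-/- and 3.12 in wild type). All 5 NK markers fell with stimulation in both genotypes, and their part in the falls of Gzma, Klrg1, Ccl5 and S1pr5 was not tested. Of the 6 memory-phenotype genes, 2 rose and 3 fell in BATF-/- cells and 3 rose and 2 fell in wild-type cells, beside the same shares over all genes. The integrin alpha 4 gene, Itga4, fell by 3.06 in both. Cxcr3 fell by 1.19 in BATF-/- cells and was at -0.98 in wild-type cells, which did not pass. It fell in both genotypes without BATF-/- naive replicate 1 (-1.78, adjusted p = 0.000428 in BATF-/- and -0.98, adjusted p = 0.0211 in wild-type cells).

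Of 9 measured genes described as lower where T-bet is high, 1 was lower in BATF-/- cells at day 3 and none was higher (median -0.16), and 4 of the 9 were dim. The gene was Il7r, the interleukin 7 receptor of resting and memory cells, at 9.59, 9.40, 9.21 and 9.16 in BATF-/- arrays, against 10.31, 10.45, 10.35 and 10.55 in wild-type arrays (-1.07 ± 0.10, adjusted p = 0.000162). It was lower in the cells that had less Tbx21 RNA, and a link between them was not tested. Without BATF-/- naive replicate 1, Gata3 was lower too (-0.44, adjusted p = 0.016). Il7r fell with stimulation (-3.18 in BATF-/- and -2.27 in wild-type cells), and these changes differed (-0.91 ± 0.17, adjusted p = 0.0271). None of the 9 passed in naive cells (median 0.04). Of all genes 1.37% passed at day 3 and 1.08% in naive cells, so counts in a list of 9 say little. The retinoid-related receptor gene Rora rose by 0.55 in BATF-/- and 1.05 in wild-type cells, and Pdcd1, the inhibitory receptor PD-1, rose by 0.71 and Gata3 by 0.39 in wild-type cells, against 0.19 and 0.23 in BATF-/- cells, which did not pass. Il17a fell by 0.93 in BATF-/- cells, which may be a lower bound, with a day 3 mean of 3.60 below the bound of 4.35. In all, 2 of the 9 rose and 2 fell in BATF-/- cells, against 3 and 1 in wild-type cells, near the shares over all genes (47% and 45.4%). One of the 2 rises was Il5, whose means lay below that bound in all 4 groups (3.04 to 3.29) and which did not pass without BATF-/- naive replicate 1 (adjusted p = 0.0563).

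**Figure D4:**
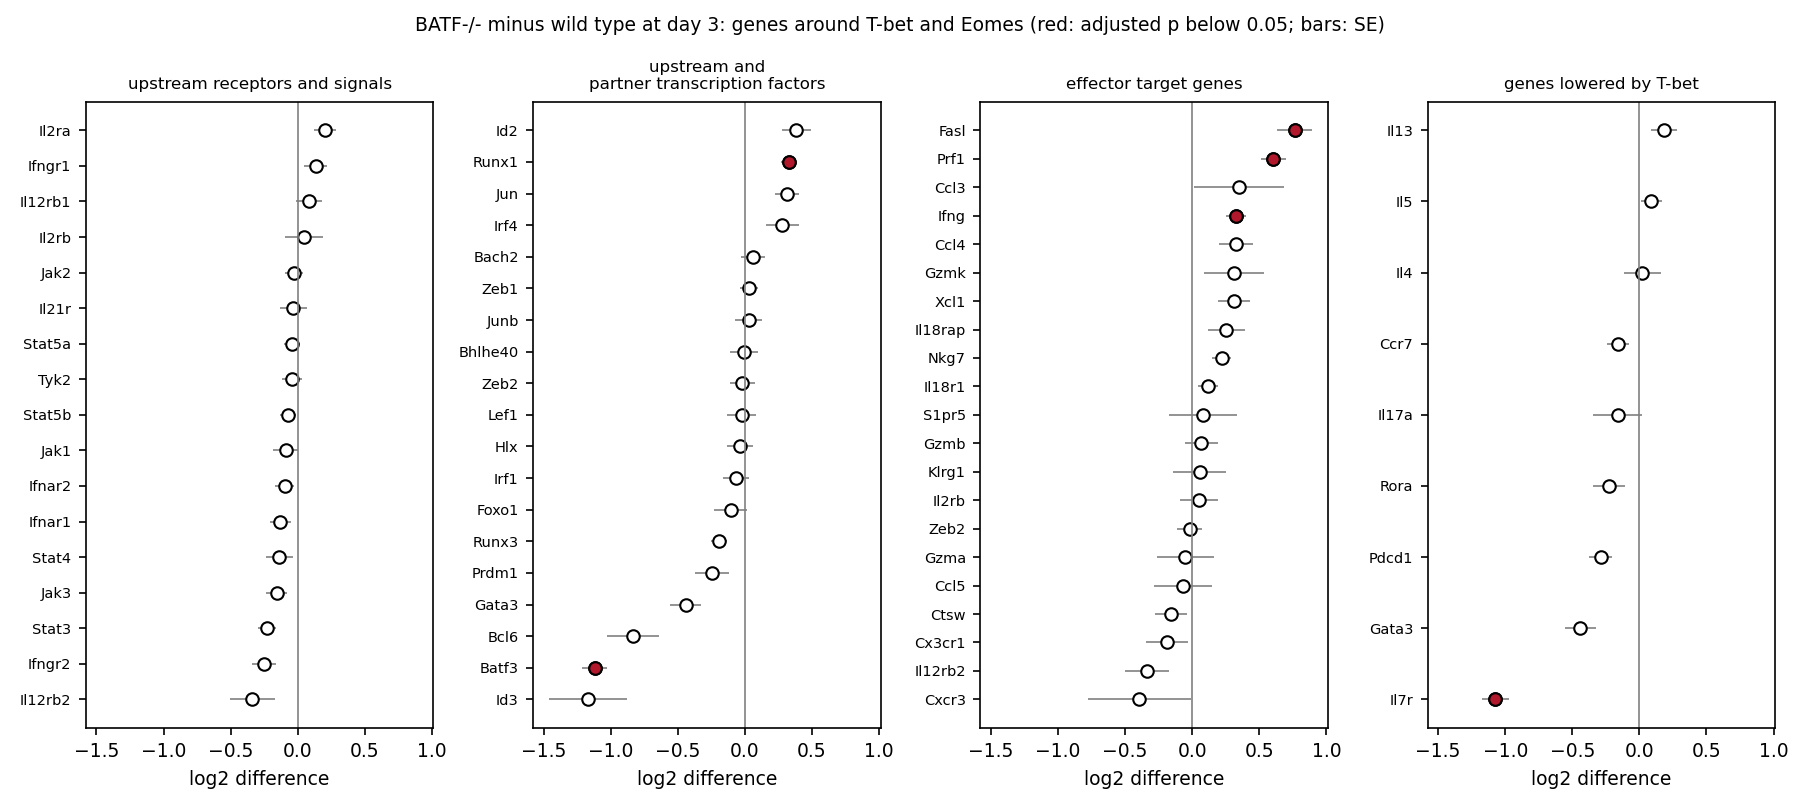
Log2 difference BATF-/- minus wild type at day 3 (horizontal axes) of the genes of 4 lists around T-bet and Eomes, without Batf, with SE as bars and red points for an adjusted p below 0.05. Fasl (0.76), Prf1 (0.61), Ifng (0.33) and Runx1 (0.33) lie right of 0 among the red points, and Batf3 (-1.12) and Il7r (-1.07) left of it.

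Genes like Tbx21 over the 13 arrays were sought by the mean absolute difference between profiles, each centred on its own mean. The search covered 12019 genes that were not counted as dim and had no clone or model name. The most alike were the chromodomain gene Cdyl2 (0.19), the semaphorin gene Sema6d (0.20) and Gtf2ird1 (0.20). Next came the scaffold gene Dlg3 (0.21) and Trgv1, a variable segment of the gamma T cell receptor locus (0.21). Cdyl2 had group means of 7.54 in BATF-/- and 8.20 in wild type at day 3, and 7.78 in BATF-/- and 7.88 in wild-type naive cells. For Eomes they were Tnfsf11, which codes for the cytokine RANKL (0.22), Zfp983 (0.23), the protease gene Tmprss13 (0.24), the water and glycerol channel gene Aqp3 (0.25) and the thrombin receptor gene F2r (0.26). F2r had group means of 11.68 in BATF-/- and 11.16 in wild type at day 3, and 10.91 and 10.73 in naive cells. By the same measure Tbx21 and Eomes differed from each other by 0.73, which put Eomes at position 11058 for Tbx21 and Tbx21 at position 10816 for Eomes.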

How the data were processed

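Per the submitters' processing notes the deposited intensity values were summarised with RMA, and no version is given. The values were on a linear scale, were converted to log2 and were not normalised again. Gene names came from the platform table, updated through RefSeq gene identifiers (GRCm38.p6). Of 45101 probe sets 34958 are assigned to 1 gene, 932 to several and 9211 to none. Without the 64 control probe sets, the probe set with the highest mean was used for each of 18193 genes. No filter was applied before the tests.

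A model with a mean per group was fitted over the 13 arrays (limma 3.58.1, R 4.3.3, lmFit and eBayes, 9 residual degrees of freedom, two-sided, Benjamini-Hochberg over all genes, threshold 0.05) beside a second fit over all 45037 non-control probe sets. No label states if replicates are from different mice or cultures; p-values thus describe the spread between arrays, which may be technical. Passed means an adjusted p below 0.05. The fit was run on simulated data in which each gene had the same spread in all groups. That run cannot speak to the unequal spread of Eomes. The members and the gene lists (79 measured genes in 6 lists, 6 of them in more than 1) were chosen with earlier results of these data known. Named genes are Batf, the members, list genes that passed between the genotypes (up to 6 per list) and the 4 largest rises and falls per list with stimulation, plus the 5 genes most like each member. Il12rb2, Il2rb, Cxcr3, Runx3 and Gzmb at day 3, the genes added without 1 array, and Ncr1 were named after their values were seen. Alternatives were another normalisation, a filter on dim probe sets, other probe set choices, variance priors, array weights, a replicate block, the compared groups alone and leaving out each array. Same-numbered arrays did not deviate together, with correlations from -0.26 to 0.04 over genes.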

Additional observations from a re-analysis of the deposited data

Results flagged for a closer look

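In 88 groups of 4 day 3 arrays (the members, Batf and the named list genes), 9 held an array far from the others by Dixon's ratio, and chance gives about 1 in 20. None was a member or Batf. In BATF-/- arrays the ratio was 0.892 for Ccl5, 0.851 for Ifngr2, 0.862 for Jak1 and 0.839 for Tbx4. In wild-type arrays it was 0.857 for Gzma, 0.945 for Ifngr2, 0.848 for Junb, 0.969 for Rora and 1.0 for Gzmb, of which 3 arrays shared a value. The change with stimulation differed between the genotypes by the test of the difference for Il7r (-0.91), Batf3 (-1.11) and Bhlhe40 (-1.09). For Bhlhe40 the day 3 means were alike (11.31 in BATF-/- and 11.32 in wild type), and the naive means differed.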

How the results depend on the processing

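The lower Tbx21 in BATF-/- cells at day 3 kept its sign and call in 10 alternatives (-0.90 to -0.87, adjusted p 3.21e-05 to 0.0354, the replicate block -0.89 among them) and without any 1 array (-0.93 to -0.84), as did its fall in BATF-/- cells (-0.83 to -0.69, and -0.93 to -0.54). The higher Eomes at day 3 passed with array weights (0.86, adjusted p = 0.00311) and with the compared groups alone (0.83, adjusted p = 0.00012), and spanned 0.79 to 0.87 without 1 array. Its rise in BATF-/- cells did not pass with the groups alone (0.96). In naive cells Eomes was at -0.10 with the replicate block, at 0.60 with array weights (adjusted p = 0.181) and at -0.34 to 0.53 without 1 array, and Tbx21 at -0.024 to 0.37. The wild-type change of Tbx21 passed with weights (0.31) and with its groups alone (0.33), and spanned 0.17 to 0.48 without 1 array. The genotype difference of the Tbx21 changes passed without dim probe sets (-1.04), with an intensity trend (-1.04) and with weights (-1.14), and spanned -1.26 to -0.87 without 1 array. The cause of these shifts was not tested. At day 3, 250 genes passed between the genotypes, against 1306 with weights, 125 with the block, 689 with the groups alone and 122 to 563 without 1 array. In naive cells 196 passed, against 333 probe sets, 459 with weights, 87 with the block, 1 with the groups alone and 97 to 627 without 1 array. With stimulation 8545 genes passed in BATF-/- and 8258 in wild-type cells, against 17236 and 17402 probe sets. For the genotype difference of the changes 118 passed, against 542 with weights, 50 with the block and 58 to 283 without 1 array. Without a wild-type naive array, the remaining one is assumed to vary like the other groups. Lists without BATF-/- naive replicate 1 were added after seeing the data.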
